A study of Arabidopsis thaliana with 18 samples.

Results

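The 10 genes described here set the time of flowering in Arabidopsis thaliana. They are FLC (AT5G10140) and its relatives MAF1 (AT1G77080), MAF2 (AT5G65050), MAF3 (AT5G65060), MAF4 (AT5G65070) and MAF5 (AT5G65080), SVP (AT2G22540), SOC1 (AT2G45660), AGL42 (AT5G62165) and FT (AT1G65480), and they were chosen by locus ID out of 33602 loci in a table of leaf RNA-seq counts. The genes were chosen with earlier results of these data known, and which values guided the choice is not recorded. Every level and difference of the 10 genes is therefore given as a description, with no test of its own. All 10 were present in the table and 10 of 10 passed the filter on low counts over all 18 libraries, but FLC was left out of 4 of the 12 fits by that filter.

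The study followed leaves of plants in the Col-0 background that were fc2 pub4, fc2 or wt. The fc2 mutation (fc2-1, a T-DNA insertion) weakens plastid ferrochelatase, and fc2 plants make singlet oxygen in the chloroplast when light and dark alternate. The double mutant carries in addition pub4-6, a point mutation in a cytoplasmic ubiquitin ligase, and plants with pub4 alone were not analysed here. Each mutation was represented by a single allele. Plants of the cycling groups grew for 17 days in constant light and then 2 days in cycles of 16 h light and 8 h dark, whereas plants of the 24 h groups stayed in constant light for 19 days. The 6 groups were thus fc2 pub4, fc2 and wt in cycling light and fc2 pub4, fc2 and wt in 24 h light, with 3 libraries each, every library made from leaves pooled from 3 plants. All leaves were taken at age 19 days, 1 h after subjective dawn. Library totals ran between 26994499 and 39382316 counts. FC2, the targeted gene, averaged 60.7 CPM in fc2 pub4, 50.2 CPM in fc2 and 167 CPM in wt in cycling light, and 55.3, 31.9 and 152 CPM in fc2 pub4, fc2 and wt in 24 h light. PUB4 transcript stayed between 21.4 and 27.4 CPM in the group means, and a point mutation need not change it. CPM here is a count expressed per fixed number of library counts, after TMM scaling over the 18 libraries.

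A plant flowers when the repressors of floral integrator genes are overcome. FLC, the MAF proteins and SVP are MADS-box transcription factors that hold back FT and SOC1, and cold, age and day length lift that block by separate routes. FT is made in the companion cells of leaf veins and travels as a protein to the shoot tip, where it switches on SOC1 and then the genes of floral identity. AGL42 is a MADS-box relative of SOC1 that promotes flowering in the shoot tip and delays senescence of floral organs. The Col-0 accession carries an inactive FRIGIDA allele, and FLC is low in it as a rule.

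FLC and the MAF genes arose from a common ancestor, and 50-base reads have to be told apart between near copies. The start of the exon that encodes the DNA-binding MADS domain is shown for that reason, from RefSeq on assembly TAIR10.1, 5′ to 3′ in the sense of each gene. Capitals mark bases that differ from FLC. The stretches lie at chr5:3179280-3179339 on the minus strand for FLC, and on the plus strand at chr1:28955679-28955738 for MAF1, chr5:25982415-25982474 for MAF2, chr5:25987527-25987586 for MAF3, chr5:25992310-25992369 for MAF4 and chr5:25997671-25997730 for MAF5, where 21 further coding bases precede the part shown.
FLC: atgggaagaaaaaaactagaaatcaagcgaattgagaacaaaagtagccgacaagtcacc
MAF1: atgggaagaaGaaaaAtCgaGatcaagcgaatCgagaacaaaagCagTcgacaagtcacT
MAF2: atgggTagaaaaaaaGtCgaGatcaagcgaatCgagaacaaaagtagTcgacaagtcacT
MAF3: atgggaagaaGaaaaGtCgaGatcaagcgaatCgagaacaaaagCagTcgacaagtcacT
MAF4: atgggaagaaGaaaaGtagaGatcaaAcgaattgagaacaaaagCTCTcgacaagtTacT
MAF5: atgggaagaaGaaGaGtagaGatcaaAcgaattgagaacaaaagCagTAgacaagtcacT

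In these 60 bases the MAF genes differed from FLC at 7 (MAF2) to 10 (MAF4) positions. Over the whole aligned exon, FLC was 81.1% to 84.9% identical to the MAF genes, MAF2 and MAF3 were 94.6% identical, and MAF4 and MAF5 were 89.7% identical. MAF1 and MAF3 shared at least 1 window of 50 bases with no difference. Of all 50-base windows in the annotated exons, 0.28% of those of MAF1 and 2.46% of those of MAF3 recurred elsewhere in the genome, and none did for the other 8 genes, so reads of most of the family could be placed on 1 gene. MAF2, MAF3, MAF4 and MAF5 stand in a row on chromosome 5, separated by 873, 780 and 1301 bases. FLC (chr5:3173382-3179448) lies opposite an antisense locus that covers 68.1% of its exon bases in the RefSeq annotation. The library kit kept strand, but whether counting used strand is not given in the sources used here, so reads of FLC and of its antisense transcripts cannot be told apart.

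Per kilobase of exon, SVP and SOC1 were the most abundant of the genes in these leaves, at 53.1 and 39.4 CPM per kb averaged over the 18 libraries. MAF1, MAF2 and MAF3 formed a middle group at 8.43 to 9.71 CPM per kb, and the exon lengths of MAF1 and MAF2 count introns that some annotated isoforms retain, which lowers their value. MAF5 stood at 2.57, FT at 2.36, AGL42 at 1.73 and MAF4 at 1.14 CPM per kb. FLC was lowest, at 0.347 CPM per kb. The order describes levels, and the differences between groups follow gene by gene.

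FLC, the repressor that vernalization silences, was near the limit of detection and varied more among libraries of a group than between groups. It had 0, 30 and 2 counts in fc2 pub4, 26, 46 and 9 counts in fc2 and 33, 2 and 15 counts in wt in cycling light. In 24 h light it had 2, 2 and 11 counts in fc2 pub4, 15, 4 and 4 counts in fc2 and 7, 9 and 18 counts in wt. Groups next to each other in the order of means overlapped. The library with 0 counts allows up to 3 counts, or 0.103 CPM, and this limit covers counting error only. The fc2 pub4 mean in cycling light, 0.395 ± 0.622 CPM (SD, n = 3), rested on the library with 30 counts: the log2FC of fc2 pub4 vs. wt was -0.55 with it and -3.86 without it, and against fc2 it was -0.87 with it and -4.20 without it. The genotypes overlapped in each light regime, and at this depth their order is not resolved.

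MAF1, also called FLM, whose splice forms link flowering to temperature, was nearly level. Its means were 37.8, 40.5 and 38.4 CPM in fc2 pub4, fc2 and wt in cycling light and 35.7, 36.1 and 38.1 CPM in 24 h light, and the highest mean was 1.13 times the lowest. The libraries of all neighbouring groups in that order overlapped. MAF2, a repressor that keeps plants from flowering after short cold spells, averaged 30.2, 33.7 and 29.2 CPM in fc2 pub4, fc2 and wt in cycling light, and 35.7, 32.6 and 35.7 CPM in 24 h light. Its 3 fc2 libraries in cycling light (33.0 to 34.5 CPM) lay above all of fc2 pub4 (28.5 to 31.1 CPM) and of wt (28.5 to 29.9 CPM). MAF3, a close copy of MAF2, had its highest mean of the 6 groups in fc2 in cycling light. It was 15.9 ± 0.56 CPM there, against 12.2 ± 1.75 CPM in wt in cycling light (SD, n = 3), with a log2FC of 0.39 ± 0.11 (SE). The log2FC of MAF2 for fc2 vs. wt was 0.22 ± 0.06, and with library size as the only scaling it was 0.45, and that of MAF3 was 0.62, where this scaling moved the median of all genes by 0.23.

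MAF5, the last gene of the chromosome 5 cluster, showed the widest span of the FLC relatives, 9.12-fold between the highest and the lowest group mean. In cycling light it had 0.755, 0.593 and 0.619 CPM in fc2 pub4, 3.20, 2.39 and 2.15 CPM in fc2, and 4.29, 3.78 and 2.48 CPM in wt. The fc2 pub4 libraries lay below every library of the other groups in cycling light. The log2FC was -2.39 ± 0.28 against wt and -1.98 ± 0.27 against fc2 (SE). MAF5 had in 24 h light 0.706, 2.13 and 3.40 CPM in fc2 pub4, 5.73, 4.64 and 1.97 CPM in fc2, and 4.34, 7.60 and 5.99 CPM in wt. There the fc2 pub4 libraries lay below those of wt (log2FC -1.52 ± 0.42) but overlapped with fc2 (log2FC -0.97 ± 0.48), and libraries of 1 group differed by up to 4.82-fold.

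MAF4, the neighbour of MAF5, was also lowest in fc2 pub4 in cycling light, with less separation. It had 1.30, 1.48 and 0.764 CPM in fc2 pub4, 1.17, 2.17 and 2.31 CPM in fc2, and 3.29, 4.02 and 1.93 CPM in wt. The fc2 pub4 libraries lay below those of wt, with a log2FC of -1.35 ± 0.32 (SE), and overlapped with those of fc2. MAF4 averaged in 24 h light 1.56 ± 0.13 CPM in fc2 pub4, 1.42 ± 0.16 CPM in fc2 and 2.17 ± 0.22 CPM in wt (SD, n = 3), with both mutants below all wt libraries. The summed level of MAF2 to MAF5 ran between 45.2 and 46.6 CPM in fc2 pub4, 53.6 and 54.4 CPM in fc2 and 45.1 and 50.3 CPM in wt in cycling light, since MAF2 and MAF3 supply most of it. Against wt in cycling light, MAF2 and MAF3 of the same cluster overlapped, with log2FC values of 0.05 (0.14 with library size alone) and 0.17 for fc2 pub4.

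**Figure D1:**
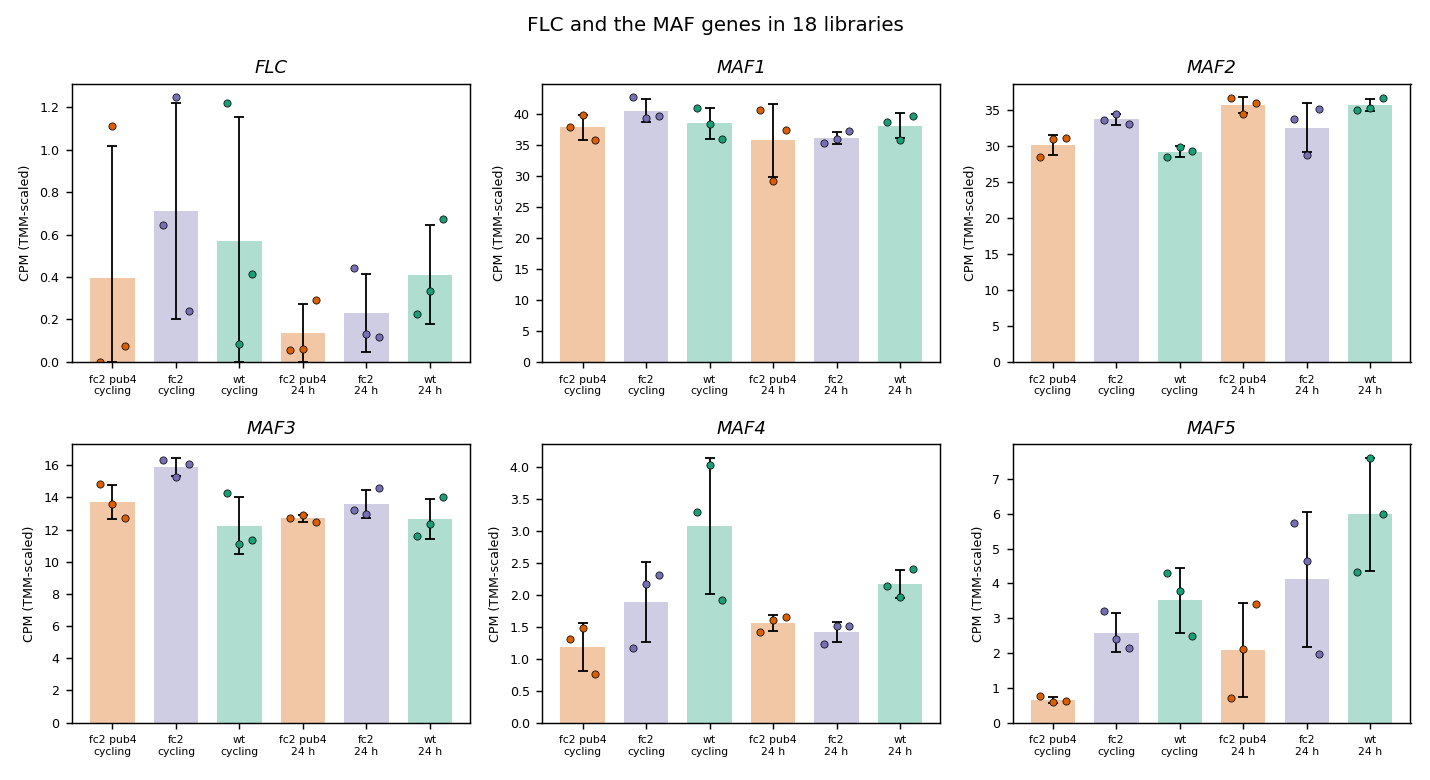
Expression of FLC and MAF1 to MAF5 (CPM after TMM scaling, linear axes starting at 0) in the 6 groups. Bars are means of 3 libraries, points are libraries and error bars are SD with the lower arm ended at 0; MAF5 in fc2 pub4 in cycling light sits between 0.593 and 0.755 CPM, below all other libraries in cycling light, while FLC scatters between 0 and 1.25 CPM.

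SVP, which joins FLC in repressing FT and SOC1, had its lowest mean of the 6 groups in fc2 in cycling light. In cycling light it had 111, 94.6 and 104 CPM in fc2 pub4, 71.5, 68.0 and 80.8 CPM in fc2, and 112, 112 and 107 CPM in wt. All fc2 libraries lay below those of both other genotypes, with a log2FC of -0.58 ± 0.08 for fc2 against wt and 0.49 ± 0.09 for fc2 pub4 against fc2 (SE). With library size as the only scaling these values were -0.35 and 0.35. The 3 genotypes overlapped in 24 h light, at 92.4 ± 5.62 CPM in fc2 pub4, 91.8 ± 0.25 CPM in fc2 and 98.4 ± 8.83 CPM in wt (SD, n = 3). The sum of leaf mesophyll markers was also lowest in fc2 in cycling light: the summed level of RBCS1A, LHCB1.1 and LHCB2.1 was 19208 to 19926 CPM in fc2 pub4, 8206 to 10375 CPM in fc2 and 21292 to 22430 CPM in wt, with all 3 genes detected everywhere. RBCS1A supplies most of that sum. LHCB2.1 had a lower mean in fc2 pub4 in 24 h light (488 CPM) than in fc2 in cycling light (613 CPM). LHCB1.1 averaged 1031 and 943 CPM in these groups, and the libraries of both genes overlapped. In 24 h light, where SVP overlapped, the sum was lowest in fc2 pub4, at 11887 to 14193 CPM. It was 15376 to 18385 CPM in fc2 and 15973 to 19214.5 CPM in wt. The study reports nuclear photosynthesis genes as repressed in fc2 in cycling light, so these markers need not track cell number. Their part in the SVP values was not tested. In whole leaves, fewer cells of a type and less RNA per cell cannot be told apart.

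SOC1, the integrator on which the photoperiod, age and gibberellin routes converge, was lowest in fc2 pub4 in both light regimes. In cycling light it had 47.6, 38.5 and 43.7 CPM in fc2 pub4, 63.3, 56.3 and 67.3 CPM in fc2, and 53.8, 61.2 and 60.1 CPM in wt. In 24 h light it had 58.3, 48.5 and 54.9 CPM in fc2 pub4, 75.0, 74.2 and 96.6 CPM in fc2, and 66.6, 63.4 and 72.1 CPM in wt. No fc2 pub4 library reached the lowest library of fc2 or wt in the same light. The log2FC against wt was -0.42 ± 0.08 in cycling light and -0.33 ± 0.08 in 24 h light, and against fc2 it was -0.53 ± 0.10 and -0.60 ± 0.11 (SE). The fc2 libraries lay above all wt libraries in 24 h light (log2FC 0.28 ± 0.10) and overlapped with wt in cycling light (0.11 ± 0.08).

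AGL42, the SOC1 relative, was likewise lowest in fc2 pub4, with a larger log2FC. In cycling light it had 1.03, 0.519 and 1.56 CPM in fc2 pub4, 3.88, 2.28 and 4.09 CPM in fc2, and 2.14, 4.44 and 4.73 CPM in wt. In 24 h light it had 1.36, 1.43 and 1.97 CPM in fc2 pub4, 3.20, 3.62 and 3.75 CPM in fc2, and 4.05, 2.60 and 3.41 CPM in wt. The fc2 pub4 libraries were separate from the other genotypes in both regimes, and fc2 and wt overlapped. The log2FC against wt was -1.85 ± 0.37 in cycling light and -1.09 ± 0.24 in 24 h light, and against fc2 it was -1.72 ± 0.37 and -1.15 ± 0.21 (SE). Over the 18 libraries, SOC1 and AGL42 correlated at r = 0.793, which is a description because the libraries share genotype and light groups.

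SOC1 and AGL42 act in shoot tips and floral organs, so the flower and meristem markers were read beside them. The summed level of 16 flower genes was 4.08 to 9.93 CPM in fc2 pub4, 12.7 to 32.8 CPM in fc2 and 9.31 to 26.4 CPM in wt in cycling light. In 24 h light it was 8.14 to 10.3 CPM in fc2 pub4, 22.0 to 52.8 CPM in fc2 and 5.53 to 9.77 CPM in wt. More than 3 counts in at least 1 library were found for 13, 16 and 16 of the 16 flower genes in fc2 pub4, fc2 and wt in cycling light and for 13, 16 and 14 in 24 h light, and 2, 0 and 0 of them in cycling light and 1, 0 and 1 in 24 h light had 0 counts in all 3 libraries of the group. The fc2 pub4 and wt libraries in 24 h light thus overlapped in flower markers, while SOC1 and AGL42 did not overlap between them, and the median log2FC of the 8 flower genes tested was 0.25. The median log2FC of the flower genes was negative in the other comparisons of fc2 pub4, where SOC1 and AGL42 were lower too. Against wt in cycling light, 9 of 10 tested had a negative log2FC, with a median of -1.03, 5 of 16 had separate lower libraries, and 2 were called lower, where 8.02% of all genes were: AG by -1.68 (adjusted p = 0.00082) and SEP1 by -1.70 (adjusted p = 0.0075), both floral organ identity genes (edgeR). Against fc2 the median log2FC was -1.66 over 11 flower genes in cycling light and -1.93 over 10 in 24 h light, with 4 and 12 of 16 separate and lower. In 24 h light fc2 stood above wt in flower markers, with a median log2FC of 2.40 over 10 genes, all positive. Of 16, 13 had separate higher libraries. The share of all genes with separate libraries was not counted for any of these comparisons, so these counts of separation have no background. Of the 10 tested, only SEP1 was called higher, by 2.34 (adjusted p = 0.0016, edgeR), where 0.239% of all genes were. The sum of 6 meristem genes was 9.82 to 12.9 CPM in fc2 pub4, 14.6 to 21.9 CPM in fc2 and 10.5 to 19.97 CPM in wt in cycling light, and 6.39 to 9.29, 7.14 to 17.5 and 4.64 to 10.2 CPM in fc2 pub4, fc2 and wt in 24 h light. Of the 4 meristem genes tested in fc2 pub4 against fc2 in cycling light, all had a negative log2FC (median -0.82). STM was called lower there, where 19% of all genes were. The median was -0.59 against fc2 in 24 h light, -0.41 against wt in cycling light and 0.02 against wt in 24 h light, with 0 called in each. The part of flower buds or shoot tips in the SOC1 and AGL42 differences was not tested.

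**Figure D2:**
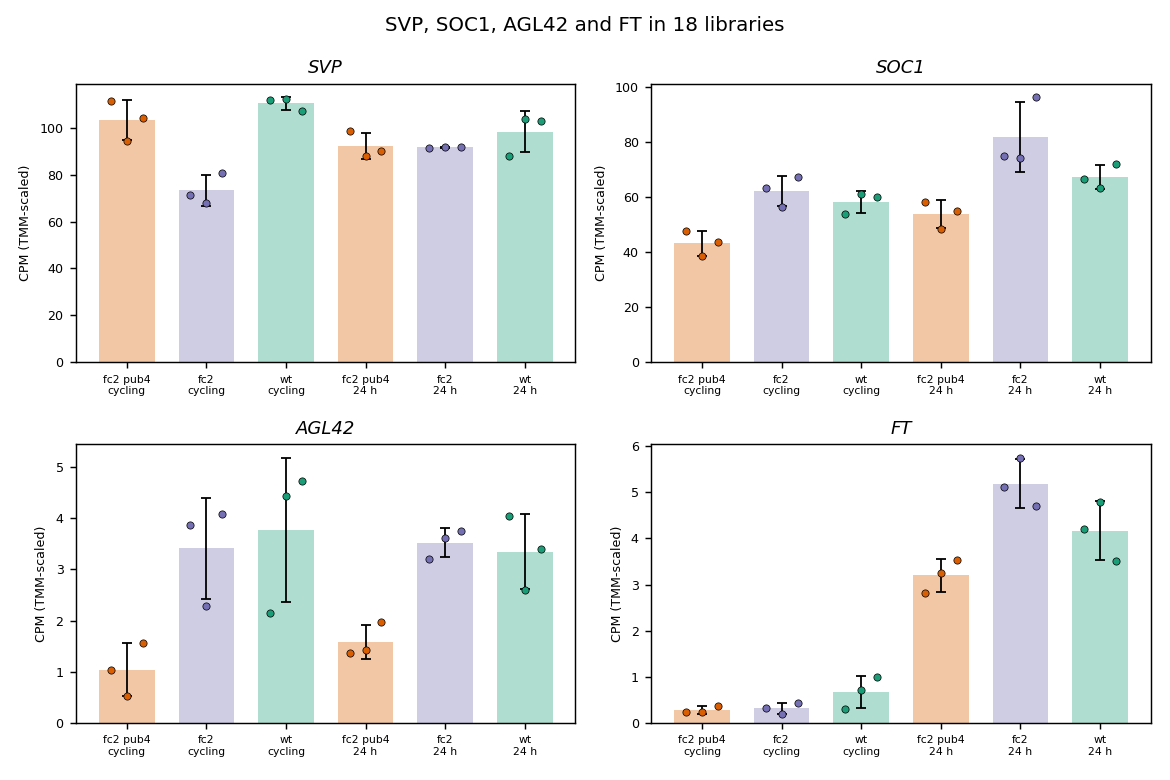
Expression of SVP, SOC1, AGL42 and FT (CPM after TMM scaling, linear axes starting at 0) in the 6 groups, with means of 3 libraries as bars, libraries as points and SD as error bars. SVP is low in fc2 in cycling light (68.0 to 80.8 CPM), SOC1 and AGL42 are lowest in fc2 pub4 in both regimes, and FT is below 1 CPM in all cycling light libraries.

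FT, the mobile florigen, had the widest span of the 10 genes, 18.9-fold between the highest and the lowest group mean. In cycling light it had 0.240, 0.222 and 0.364 CPM in fc2 pub4, 0.323, 0.190 and 0.425 CPM in fc2, and 0.296, 0.705 and 0.990 CPM in wt. In 24 h light it had 2.83, 3.25 and 3.54 CPM in fc2 pub4, 5.12, 5.76 and 4.70 CPM in fc2, and 4.21, 4.78 and 3.52 CPM in wt. The highest library in cycling light lay below the lowest in 24 h light. The log2FC of cycling vs. 24 h light was -3.51 ± 0.28 in fc2 pub4, -4.05 ± 0.27 in fc2 and -2.60 ± 0.33 in wt (SE), which is 11.4-fold, 16.6-fold and 6.07-fold lower in cycling light. FT transcript follows a daily rhythm in plants with a night and is highest late in the light period as a rule, and these leaves were all taken 1 h after subjective dawn, so the values compare the 2 regimes at that hour only.

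Among genotypes, FT in 24 h light had no library of fc2 pub4 as high as the lowest of fc2, at 3.20 ± 0.36 against 5.19 ± 0.53 CPM (SD, n = 3) and a log2FC of -0.69 ± 0.16 (SE), and fc2 and wt overlapped. The fc2 pub4 and wt libraries also overlapped in 24 h light, with a log2FC of -0.39 ± 0.17 (SE). In cycling light, at 6 to 36 counts a library, the genotypes overlapped. SUC2, the companion cell sugar transporter and the most abundant of 3 companion cell markers, averaged 73.5 ± 7.64 CPM in fc2 pub4, 166 ± 20.8 CPM in fc2 and 147 ± 8.84 CPM in wt in cycling light, and 121 ± 2.54, 177 ± 10.9 and 183 ± 9.78 CPM in fc2 pub4, fc2 and wt in 24 h light (SD, n = 3). SUC2 fell in fc2 pub4 in 24 h light by 0.61 on the log2 scale against wt and by 0.55 against fc2, at an adjusted p of 0.0018 and 0.0022 (edgeR quasi-likelihood test, Benjamini-Hochberg over all genes). The other companion cell markers had smaller differences: in 24 h light APL had a log2FC of -0.28 against wt and -0.29 against fc2, and FTIP1 had -0.21 and -0.17, and none of these was called (adjusted p = 0.14, 0.078, 0.23 and 0.35, edgeR). Against wt in cycling light all 3 markers were called lower in fc2 pub4, where 8.02% of all genes were. Against fc2 in cycling light SUC2 was called lower (-1.19), where 19% of all genes were, while APL (-0.03) and FTIP1 (0.0026) were not. The sum of the 3 markers SUC2, APL and FTIP1, all detected in every group, was 144 to 150 CPM in fc2 pub4, 196 to 218 CPM in fc2 and 200 to 221 CPM in wt in 24 h light, and 96.8 to 110, 170 to 207 and 180 to 197 CPM in fc2 pub4, fc2 and wt in cycling light, and SUC2 supplies most of that sum. The part of companion cells in the FT values was not tested.

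**Figure D3:**
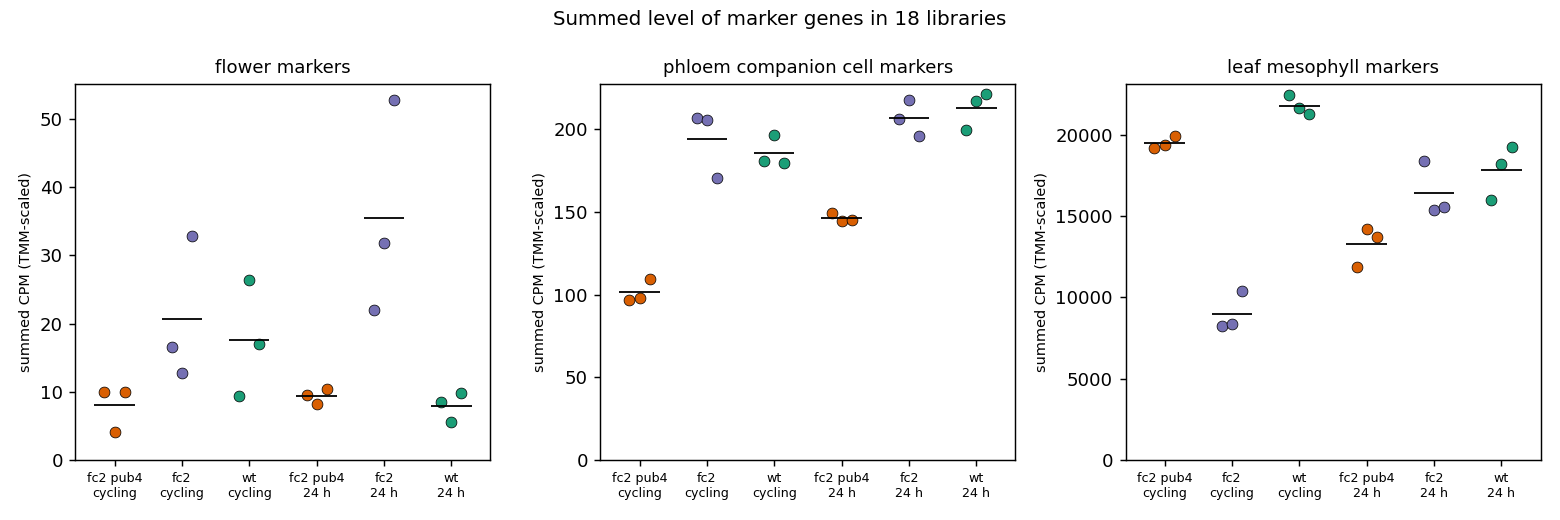
Summed CPM (after TMM scaling, axes starting at 0) of 16 flower, 3 phloem companion cell and 3 leaf mesophyll marker genes in the 18 libraries, with a line at each group mean. Flower markers are highest in fc2 in 24 h light (22.0 to 52.8 CPM), the companion cell sum, most of it SUC2, is lowest in fc2 pub4 in both regimes, and the mesophyll sum, most of it RBCS1A, is lowest in fc2 in cycling light.

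Beside FT, several of the genes differed between light regimes by smaller amounts. MAF5 was lower in cycling light than in 24 h light in each genotype, by log2FC -1.65 ± 0.49 in fc2 pub4, -0.69 ± 0.35 in fc2 and -0.78 ± 0.25 in wt (SE), with separate libraries in wt only. SOC1 was lower in cycling light with separate libraries in all 3 genotypes, by log2FC -0.31 ± 0.09 in fc2 pub4, -0.41 ± 0.11 in fc2 and -0.21 ± 0.07 in wt (SE). MAF2 was lower in fc2 pub4 (-0.24 ± 0.07) and wt (-0.29 ± 0.06) with separate libraries, and overlapped in fc2 (0.03 ± 0.09). SVP was lower in cycling light in fc2, at 73.4 against 91.8 CPM (log2FC -0.34 ± 0.08), and the log2FC was 0.17 ± 0.08 in fc2 pub4, with overlap, and 0.17 ± 0.07 in wt. With library size alone the SVP values were 0.04 in fc2 pub4, -0.24 in fc2 and 0.03 in wt, SOC1 in wt was -0.35, and MAF2 was -0.37 in fc2 pub4 and -0.43 in wt. AGL42 and MAF4 overlapped between the regimes in each genotype.

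**Figure D4:**
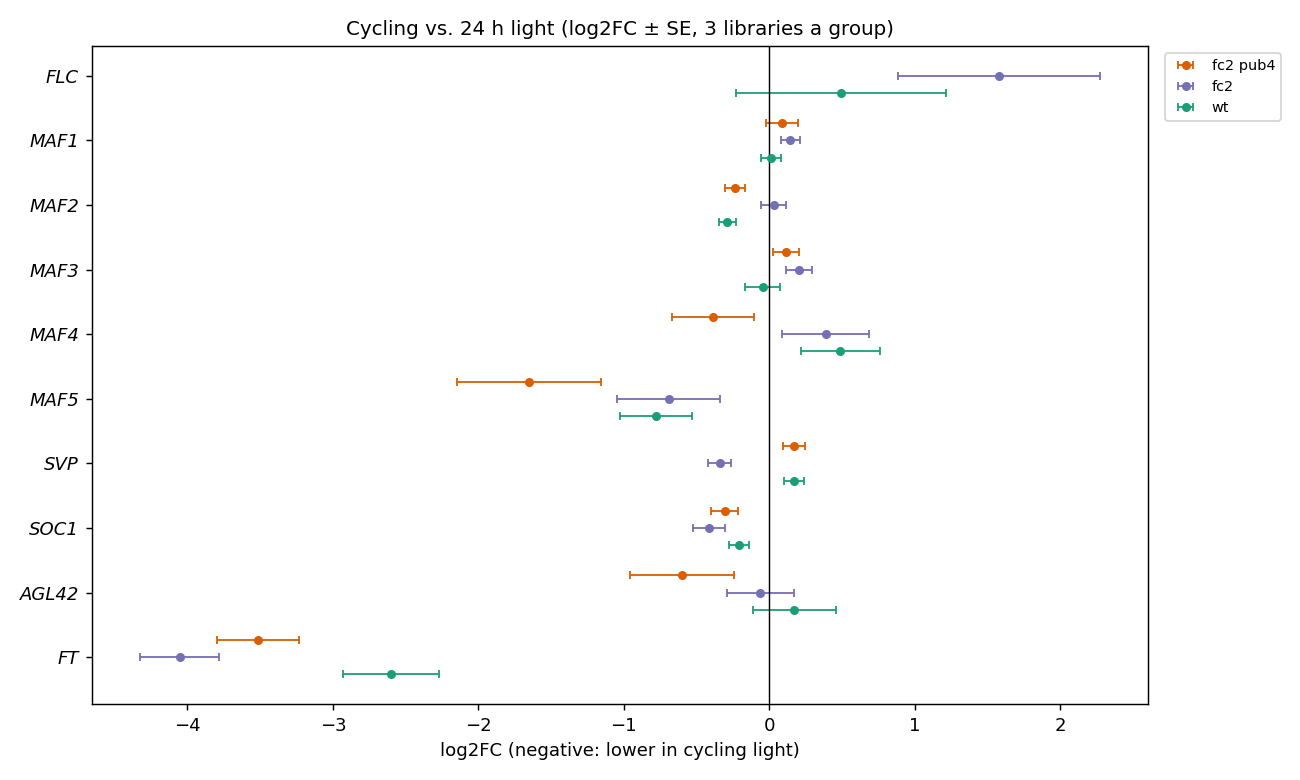
Log2FC of cycling vs. 24 h light for the 10 genes in fc2 pub4, fc2 and wt, with error bars of 1 SE from the edgeR fit. FT lies between -4.05 and -2.60, while the other genes lie between -1.65 and 1.58; FLC was not fitted in fc2 pub4.

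Counts of calls were made in a fit over all genes for each comparison, where a call is an adjusted p under 0.01. Because the genes were chosen with earlier results of these data known, the share of all genes called is printed beside each count and nothing is read from the difference. For fc2 pub4 vs. wt in cycling light, 4 of 10 genes were called, all lower (MAF4, MAF5, SOC1 and AGL42), where 6.32% of all genes tested were called higher and 8.02% lower. With library size as the only scaling, the share of calls that were higher was 68.9%, against 44.1% with TMM. In fc2 pub4 against fc2 in cycling light, 4 of 10 were called, with MAF5, SOC1 and AGL42 lower and SVP higher, where 17.4% of all genes were called higher and 19% lower (30.6% of calls higher with library size alone, against 47.9%). For fc2 vs. wt in cycling light, 1 of 10 was called, SVP, which was lower, where 21.8% of all genes were called higher and 21% lower (74.4% of calls higher with library size alone, against 50.8%). The comparisons share libraries: fc2 pub4 and fc2 are set against the same wt plants, and fc2 pub4 enters with both.

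Some of these calls rested on single libraries. MAF4 in fc2 pub4 vs. wt lost its call without fc2 pub4 replicate 1 (log2FC -1.43) or 3 (-1.12) or wt replicate 1 (-1.29) or 2 (-1.12), and with library size alone (-1.26). AGL42 lost its call against wt without fc2 pub4 replicate 1 (-1.85), wt replicate 2 (-1.74) or wt replicate 3 (-1.64), and against fc2 without fc2 pub4 replicate 1 (-1.72) or fc2 replicate 1 (-1.63). SOC1 lost its call against wt without wt replicate 2 (-0.39), and SVP lost its call for fc2 pub4 vs. fc2 without fc2 pub4 replicate 1 (0.43). MAF5, SOC1 against fc2 and SVP in fc2 vs. wt kept their calls in all 13 alternative fits each. These fits reuse the same libraries, and the genes were chosen with earlier results of these data known. A kept call is therefore no further evidence.

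EdgeR called none in 24 h light of the 9 genes tested in any genotype comparison. For fc2 pub4 vs. wt, 5 of the 9 had an unadjusted p under 0.05 and DESeq2 called 1 (AGL42). EdgeR called 0.409% of all genes higher and 0.354% lower (80.6% of calls higher with library size alone, against 53.6%). Against fc2, 3 of the 9 had an unadjusted p under 0.05 and DESeq2 called 3 (SOC1, AGL42 and FT). EdgeR called 0.897% of all genes higher and 0.589% lower (75.9% of calls higher with library size alone, against 60.3%). For fc2 vs. wt, 2 had an unadjusted p under 0.05 and DESeq2 called 0, and edgeR called 0.239% of all genes higher and 0.0763% lower. These edgeR shares are no background for the DESeq2 counts or the unadjusted p. No share of all genes was counted for either of those.

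For cycling vs. 24 h light, 1 of 9 genes was called in fc2 pub4 (FT, lower), where 20.7% of all genes were called higher and 19.4% lower (34.8% of calls higher with library size alone, against 51.6%). In fc2, 2 of 10 were called, SVP and FT, both lower, where 22.7% were called higher and 21.3% lower (62% of calls higher with library size alone, against 51.6%). In wt, 2 of 10 were called, MAF2 and FT, both lower, where 19.2% were called higher and 16.1% lower (34.8% of calls higher with library size alone, against 54.4%). FT kept its call in all 12 alternative fits of each genotype that retained it, and these fits reuse the same libraries. MAF2 in wt lost its call without wt cycling replicate 1 (log2FC -0.27) or 3 (-0.29), and SVP in fc2 lost its call without any of the 3 libraries in 24 h light (-0.34, -0.34 and -0.35), without replicate 1 (-0.30) or 2 (-0.27) in cycling light, and with library size alone (-0.24).

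The difference between these light responses was fitted as an interaction. For fc2 against wt, 1 of 10 genes was called, SVP, whose response was 0.49 lower on the log2 scale in fc2, where 15.3% of all genes were called higher and 16% lower (72.9% of calls higher with library size alone, against 48.9%). For fc2 pub4 against fc2, 1 of 10 was called, again SVP, whose response was 0.50 higher in fc2 pub4, where 14.1% were called higher and 14.2% lower (24.5% of calls higher with library size alone, against 49.9%). Both SVP calls were lost with library size alone, at 0.28 for fc2 pub4 against fc2 and -0.27 for fc2 against wt. For fc2 pub4 against wt, edgeR and DESeq2 called 0 of 10, and 1 had an unadjusted p under 0.05. EdgeR called 0.124% of all genes higher and 0.124% lower. The share of all genes was not counted for DESeq2 or the unadjusted p.

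**Figure D5:**
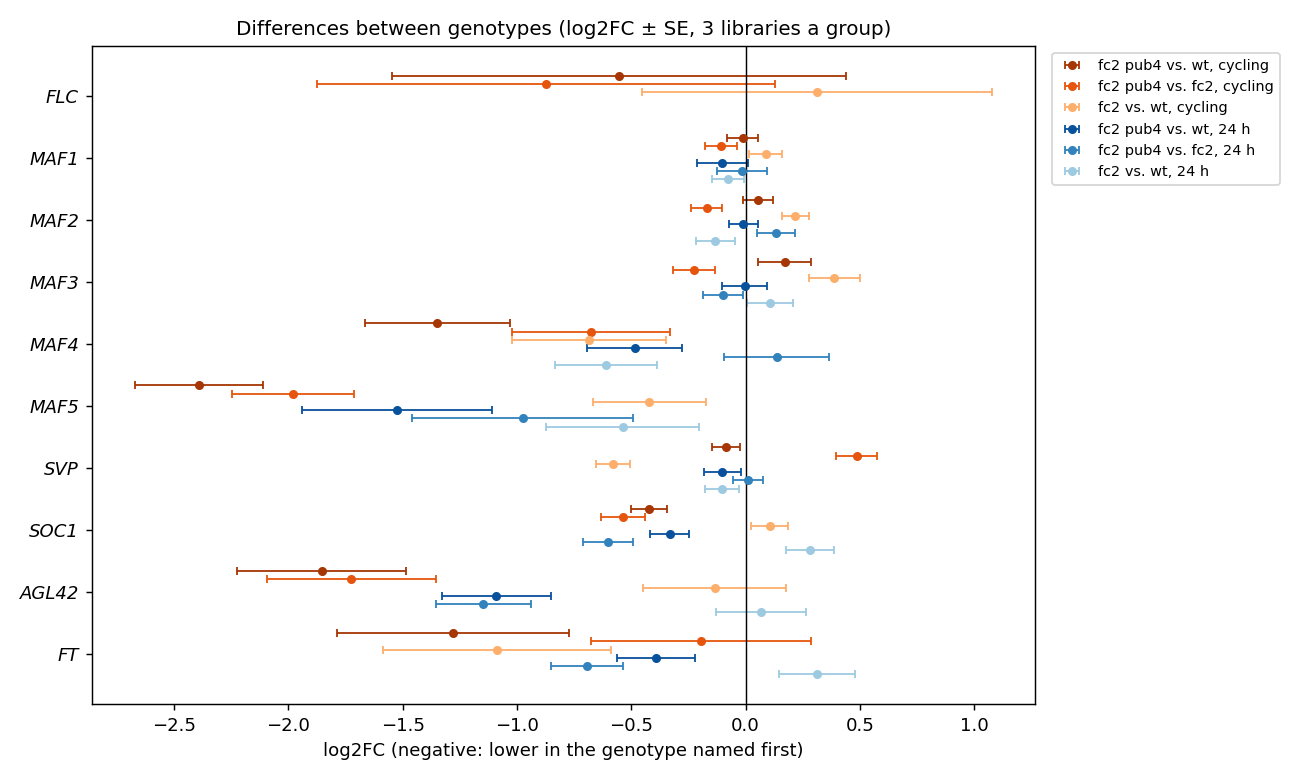
Log2FC of the 10 genes between genotypes in cycling light (orange shades) and 24 h light (blue shades), with error bars of 1 SE from the edgeR fit. MAF1, MAF5, SOC1, AGL42 and FT are negative in all 4 comparisons of fc2 pub4 with wt or fc2, with MAF1 only between -0.11 and -0.01. SVP stands at -0.58 and 0.49 in the comparisons of fc2 in cycling light with wt and fc2 pub4, and FLC was not fitted in 24 h light.

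The rest of the flowering network was read from 80 further genes of 8 routes, and here the tests of single genes are given (edgeR quasi-likelihood test, Benjamini-Hochberg over all genes tested). In fc2 pub4 vs. wt in cycling light, 5 of 70 genes tested rose (7.14%) and 4 fell (5.71%), where 6.32% and 8.02% of all genes did, with a median log2FC of 0.06 beside 0.0099 over all genes. AGL19, a MADS-box promoter of flowering that acts through vernalization, rose to 1.90 ± 0.37 CPM in fc2 pub4, against 0.398 ± 0.166 CPM in wt (SD, n = 3, log2FC 2.22 ± 0.36 SE, adjusted p = 0.00069). SMZ, an AP2-like repressor of FT, rose to 13.4 CPM in fc2 pub4, against 6.01 CPM in wt (log2FC 1.17 ± 0.11, adjusted p = 1.6e-05). SPL5, a target of miR156 that promotes flowering with age and activates SOC1 with its relatives, fell to 4.09 CPM in fc2 pub4, against 10.5 CPM in wt (log2FC -1.35 ± 0.13, adjusted p = 1.8e-05). Of the 7 AP2-like and RAV repressors of FT, 3 rose and none fell, and of the 5 age pathway genes tested, 2 fell and none rose, beside the same shares of all genes. These are counts of few genes, and the groups were not tested as such. In fc2 vs. wt in cycling light, AGL19 (log2FC 1.44, adjusted p = 0.0083) and SMZ (0.95, adjusted p = 8.9e-05) also rose and SPL5 also fell (-0.59, adjusted p = 0.0028).

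Against fc2 in cycling light, 12 of 70 genes rose in fc2 pub4 (17.1%) and 6 fell (8.57%), where 17.4% and 19% of all genes did, with a median log2FC of 0.06 beside 0.012 over all genes. The count of 18 was 8 without fc2 pub4 replicate 1, 10 without fc2 pub4 replicate 3 and 9 without fc2 replicate 2. GA20OX1, an enzyme of gibberellin synthesis, rose to 1.39 CPM in fc2 pub4, against 0.499 CPM in fc2 (log2FC 1.47 ± 0.34, adjusted p = 0.0055). TEM1, a RAV repressor of FT, fell to 9.76 CPM in fc2 pub4, against 26.1 CPM in fc2 (log2FC -1.43 ± 0.22, adjusted p = 0.00051). CDF5, a DOF repressor of the photoperiod route, fell to 2.05 CPM in fc2 pub4, against 4.13 CPM in fc2 (log2FC -1.02 ± 0.22, adjusted p = 0.0035). SPL5 was in 24 h light the only gene of the list called against fc2, at 6.01 CPM in fc2 pub4 and 11.2 CPM in fc2 (log2FC -0.89 ± 0.12, adjusted p = 0.0030), with 19 of 73 at an unadjusted p under 0.05 and 5 called by DESeq2, and the count of 1 was 0 without fc2 pub4 replicate 1 or 3 or fc2 replicate 3, and 3 without fc2 replicate 2. Against wt in 24 h light edgeR called 0 of 72, with 14 at an unadjusted p under 0.05 and 6 called by DESeq2. Over all genes in 24 h light, edgeR called 0.897% higher and 0.589% lower against fc2, and 0.409% and 0.354% against wt. The share of all genes was not counted for the unadjusted p or for DESeq2, so those counts have no background.

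In fc2 vs. wt in cycling light, 10 of 70 genes rose (14.3%) and 17 fell (24.3%), where 21.8% and 21% of all genes did, with a median log2FC of 0.03 beside -0.0017 over all genes. The count of 27 was 15 without fc2 replicate 1, 14 without fc2 replicate 2, and 16, 14 and 15 without wt replicates 1, 2 and 3. GA3OX1, which makes bioactive gibberellin, fell to 1.27 ± 0.66 CPM in fc2, against 4.00 ± 0.80 CPM in wt (SD, n = 3, log2FC -1.65 ± 0.38 SE, adjusted p = 0.0048). GID1B, a gibberellin receptor, rose to 28.2 CPM in fc2, against 9.38 CPM in wt (log2FC 1.60 ± 0.10, adjusted p = 3.8e-06). TEM1 rose to 26.1 CPM in fc2, against 9.62 CPM in wt (log2FC 1.45 ± 0.18, adjusted p = 0.00015). Of the 9 gibberellin genes tested, 2 rose and 4 fell in fc2, beside the same shares of all genes. EdgeR and DESeq2 called 0 of 73 in 24 h light, with 6 at an unadjusted p under 0.05. The share of all genes under that unadjusted p was not counted.

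The network was also compared between light regimes, again at 1 h after subjective dawn only. With a single hour of harvest, a shift in daily timing and a change in level cannot be told apart. In cycling vs. 24 h light, 22 of 72 genes rose and 16 fell in fc2 pub4, 14 of 73 rose and 15 fell in fc2, and 21 of 72 rose and 10 fell in wt. These are 30.6% and 22.2% in fc2 pub4, where 20.7% and 19.4% of all genes rose and fell, 19.2% and 20.5% in fc2, where 22.7% and 21.3% did, and 29.2% and 13.9% in wt, where 19.2% and 16.1% did. The count of 29 in fc2 was 18 and 19 without replicates 2 and 3 in 24 h light and 17 and 18 without replicates 1 and 2 in cycling light. FKF1, the blue light receptor that removes the CDF repressors in the afternoon, was at 0 to 4 counts a library in fc2 pub4, 2 to 28 in fc2 and 1 to 2 in wt in cycling light, against 357 to 1021 in fc2 pub4, 259 to 463 in fc2 and 253 to 381 in wt in 24 h light. It was lower in each genotype (adjusted p = 1.3e-06 in fc2 pub4, 2.7e-05 in fc2 and 3.4e-08 in wt). CDF3, a DOF repressor that FKF1 acts on, rose to 135, 100.4 and 138 CPM in fc2 pub4, fc2 and wt in cycling light, against 35.8, 58.6 and 48.3 CPM in 24 h light, at an adjusted p of 7.4e-08, 0.00060 and 0.00029. SMZ rose to 13.4, 11.5 and 6.01 CPM in fc2 pub4, fc2 and wt in cycling light, against 3.37, 2.09 and 1.54 CPM in 24 h light, at an adjusted p of 1.6e-06, 1.2e-06 and 1.1e-05. BFT, a relative of FT that delays flowering, averaged 0.155, 0.154 and 0.157 CPM in fc2 pub4, fc2 and wt in cycling light, against 0.687, 1.07 and 1.07 CPM in 24 h light, and was called lower in each (adjusted p = 0.0020, 0.0058 and 0.0035). Of the photoperiod and light genes tested, 10 of 11 were called in fc2 pub4, 10 of 12 in fc2 and 10 of 11 in wt, beside the shares of all genes given above; this group was not tested as such.

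For the 3 members with the largest variance between groups relative to that within groups, the genes most like them were taken by Pearson's r over the 18 libraries among 14993 genes. FT was most like AT5G05200 (r = 0.978), ACR4 (r = 0.968) and AT2G37500 (r = 0.966). SOC1 was most like AT3G07340 (r = 0.908), ADS1 (r = 0.860) and AT5G62760 (r = 0.849). SVP was most like HSL1 (r = 0.957), CLV1 (r = 0.944) and AT3G24715 (r = 0.941). The libraries share genotype, light and depth, so these values describe likeness of pattern in this design.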

How the data were processed

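The authors deposited 1 table of whole-number counts per locus, made from 50-base single-end reads with HISAT2 v2.1.0 and StringTie v1.3.4 on TAIR10 (submitters' processing notes and methods). Counting settings are not given in the sources used here. Library totals were 26994499 to 39382316 counts. The members and lists were chosen with earlier results of these data known. Counts were tested with edgeR v4.0.16 (filterByExpr, TMM, quasi-likelihood F-test) on the 6 libraries of each comparison, or 12 for interactions, in R v4.3.3. Adjusted p is Benjamini-Hochberg over all genes tested. SE is the absolute log2FC divided by the square root of F. Groups came from the sample labels. Alternatives were DESeq2 v1.42.0, other scalings and filters, a fit over all 18 libraries, blocking on replicate number, and leaving out each library. Named beyond the 10 genes were at most 3 called genes per comparison with the largest change (mean of at least 1 CPM in 1 group, libraries not overlapping) and the 3 genes most like each of 3 members (mean of at least 5 CPM). Libraries of a group are separate plant pools and differed beyond counting noise.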

Additional observations from a re-analysis of the deposited data

Results flagged for a closer look

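The results below differ between groups by the interaction term of the edgeR fit over all genes, and no explanation of them was tested. The light response of SVP, one of the 10 genes and so given as a description, was lower in fc2 than in wt (log2FC -0.49) and, set against fc2, that of fc2 pub4 was higher (log2FC 0.50), and both were called. The response of TEM1, the RAV repressor of FT, was higher in fc2 than in wt (1.49, adjusted p = 0.00023) and lower in fc2 pub4 than in fc2 (-1.84, adjusted p = 6.5e-05). GID1B, the gibberellin receptor, had the same pattern, with 1.47 for fc2 against wt (adjusted p = 1.1e-05) and -1.40 for fc2 pub4 against fc2 (adjusted p = 1.9e-05). The response of GA3OX1 was lower in fc2 than in wt (-1.87, adjusted p = 0.0020), and GA20OX1 responded more positively in fc2 pub4 than in fc2 (1.68, adjusted p = 0.0044). All p-values are Benjamini-Hochberg adjusted edgeR values. Both contrasts use the same fc2 libraries.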

How the results depend on the processing

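Of 1670 alternative fits of the 116 log2FC values of the 10 genes, 1629 stayed within 1 SD of the value reported and 41 moved, 35 of them with library size alone. The sign changed in 67 fits, all of values that were not called and 58 of them within 1 SD. The 9 sign changes beyond 1 SD were 8 with library size alone and 1 of FLC for fc2 pub4 by light, at -2.35 without fc2 pub4 cycling replicate 2, against 0.97. With library size alone, SOC1 changed sign for fc2 by light (0.03, against -0.19) and for fc2 pub4 against fc2 by light (-0.13, against 0.09), MAF1 for light in wt (-0.13, against 0.01) and fc2 pub4 vs. wt in cycling light (0.08, against -0.01), MAF2 (0.09, against -0.01) and MAF3 (0.09, against -0.0041) for fc2 pub4 vs. wt in 24 h light, MAF3 for light in fc2 pub4 (-0.02, against 0.12) and SVP for fc2 pub4 vs. wt in cycling light (0.0038, against -0.09). The called values kept their sign in 217 of 217 fits, all made on the same libraries. Of 16, 7 kept their call in every fit and 9 lost it in at least 1. The cause of these moves was not tested.

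The number of the 10 genes called changed as follows. For fc2 vs. wt in cycling light (1 reported) it was 5 with library size alone and 2 with at least 10 counts in every library, with DESeq2 and with all 18 libraries. In fc2 pub4 against wt in 24 h light (0) it was 1 with DESeq2. Against fc2 in 24 h light (0) it was 2 with no filter, 3 with DESeq2 and 1 with all 18 libraries. For cycling vs. 24 h light in fc2 pub4 (1) it was 4 with library size alone, 3 with no filter, DESeq2 or all 18 libraries and 0 with at least 10 counts. In fc2 (2) it was 1 with library size alone or at least 10 counts, and in wt (2) it was 4 with library size alone and 1 with at least 10 counts. For the fc2 by light interaction (1) it was 2 with library size alone or all 18 libraries and 3 with DESeq2. The filter of 10 counts removes FT, which has fewer in cycling light. With library size alone, 7147 of 20122 genes were called higher and 2465 lower for fc2 vs. wt in cycling light. For light it called 3008 and 5624 of 19839 in fc2 pub4, and 5581 and 3415 of 20168 in fc2. In wt it called 2656 and 4980 of 19600, and for fc2 by light 4968 and 1851 of 20411. Shares of all genes are not given for the other settings, the replicate block or fits without 1 library, and nothing is read from those counts.

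Of the 80 other flowering genes, the number called for fc2 pub4 vs. wt in 24 h light (0) was 1 with no filter, 6 with DESeq2 and 3 with all 18 libraries. Against fc2 in 24 h light (1) it was 2 with library size alone, no filter or all 18 libraries and 5 with DESeq2. For the fc2 pub4 by light interaction (0) it was 1 with DESeq2.

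Leaving out 1 library at a time gave these ranges for the 10 genes: 1 to 2 for fc2 vs. wt, 1 to 4 for fc2 pub4 vs. wt and 2 to 4 for fc2 pub4 vs. fc2 in cycling light, 0 to 0 for each in 24 h light, 1 to 2 in fc2 pub4, 1 to 3 in fc2 and 1 to 3 in wt for cycling vs. 24 h light, and 1 to 2 for fc2 by light. In cycling light, fc2 pub4 vs. wt had 1 without wt replicate 2 and 2 without fc2 pub4 replicate 1, fc2 pub4 vs. fc2 had 2 without fc2 pub4 replicate 1, and fc2 vs. wt had 2 without fc2 replicate 3 or wt replicate 1. The count for light was 2 in fc2 pub4 without 24 h replicate 1 or 2, 1 in fc2 without 24 h replicate 1 or 2 or cycling replicate 1 or 2, and 1 in wt without cycling replicate 1 or 3. For fc2 by light it was 2 without fc2 24 h replicate 3 or wt cycling replicate 1. For the other flowering genes the ranges were 14 to 30, 7 to 10 and 8 to 19 in cycling light for fc2 vs. wt, fc2 pub4 vs. wt and fc2 pub4 vs. fc2, 0 to 3 for fc2 pub4 vs. fc2 in 24 h light, 31 to 37 in fc2 pub4, 17 to 29 in fc2 and 23 to 30 in wt for light, and 8 to 20 for fc2 by light and 12 to 16 for fc2 pub4 against fc2 by light.

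Same-numbered libraries correlated at -0.149 to 0.196 in their deviations from group means. In no comparison were all pairs over 0.1, so they were not treated as pairs. For cycling vs. 24 h light in fc2, r was 0.0785 to 0.196. This rule cannot show that same-numbered libraries shared no handling. With the replicate block, 1 of the 10 genes (MAF5) and 1 other flowering gene were called for fc2 pub4 vs. wt in 24 h light (0 and 0 without it), 2 of the 10 for light in fc2 pub4 (1), 3 for light in fc2 (2), and 0 other flowering genes for fc2 pub4 vs. fc2 in 24 h light (1). Depth limits FLC, at 0 to 46 counts, and FT in cycling light, at 6 to 36 counts.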
